A study of Mus musculus with 18 samples.

Results

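The MHC class I and class II antigen presentation genes were followed through mouse liver tumors and a tumor cell line. The 10 genes were chosen by symbol: H2-Aa, H2-Ab1, H2-Eb1, H2-DMa, H2-DMb1, Cd74 and Ciita for class II, and H2-K1, H2-D1 and B2m for class I. Each matched 1 row of the 43346 genes in the deposited tumor table, and all 10 were among the 18318 genes that passed the filter on low counts. RNA sequencing had been done on nodules of tumors raised with myr-AKT, an activated form of the kinase AKT, together with a mutant of YAP, the coactivator controlled by the Hippo pathway. All 12 tumors carried myr-AKT. In YAP-S tumors it was combined with YAP S127A, which is not retained in the cytoplasm through its main inhibitory serine. YAP-SY tumors received YAP S127A/Y357F, which also lacks a tyrosine that Src family kinases phosphorylate. Each model had 3 tumors labelled cholangiocarcinoma (CCA), numbered 3, 4 and 5 for YAP-S and 1, 6 and 8 for YAP-SY. It had 3 labelled mixed, numbered 2, 7 and 9 for YAP-S and 3, 5 and 9 for YAP-SY. SB1 is a cell line with 3 samples and the YAP-S CCA genotype label. The SY1 cell line is not analysed here. Strain, sex, age and time of harvest are not given in the sources used here, nor whether the SB1 samples are separate cultures. RNA came from tumor nodules, which hold stroma and blood cells besides tumor cells, and whether a sample pools nodules is not stated.

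MHC class II molecules are pairs of an alpha and a beta chain that show peptides from swallowed material to CD4 T cells. They are made mainly by dendritic cells, B cells and activated macrophages, and interferon gamma can switch them on in epithelial cells through Ciita, their master coactivator. MHC class I molecules are found on nearly all nucleated cells, where a heavy chain such as H2-K1 or H2-D1 joins the light chain B2m and shows peptides from inside the cell to CD8 T cells. Healthy hepatocytes carry little class I on their surface, and liver dendritic cells and Kupffer cells carry most of the liver's class II.

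Total counts ran from 30656499 to 130035221 in tumors and from 25341968 to 30541185 in SB1 samples. Tissue markers were read in SB1, and no verdict on its label is drawn from them. The ductal keratin gene Krt19 was at 1100 to 1789 CPM (each count divided by the library total, brought to a common scale) and Krt7, its partner keratin, at 168 to 273, while Epcam, an epithelial adhesion gene, was at 0.114 to 0.395. Summed levels in SB1 were 2782 to 3228 CPM for 8 cholangiocyte markers, 693 to 1205 for 8 hepatocyte markers and 459 to 615 for 7 fibroblast markers. The tumors labelled CCA were not alike in markers. Summed levels of 8 hepatocyte markers ran from 43916 to 54503 CPM among YAP-S CCA tumors, against 127900 to 145080 in YAP-SY CCA, and those of 8 cholangiocyte markers from 7529 to 10909 and from 2778 to 4209. YAP-SY CCA therefore held more hepatocyte and less cholangiocyte RNA than YAP-S CCA, and these markers moved with the results for the 10 genes below. Their part in those results was not tested.

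The proximal promoters are shown first as a description of sequence. Their part in the results below was not tested. Class II promoters carry an X box, an X2 element and a Y box, bound by the RFX complex, CREB family factors and NF-Y, on which Ciita docks. Class I promoters add a kappa B site and an interferon element. Bases just upstream of the RefSeq start are given 5′ to 3′ on the gene's strand, from the RefSeq promoter table on GRCm38.p6, with searched letters in capitals.
H2-Aa: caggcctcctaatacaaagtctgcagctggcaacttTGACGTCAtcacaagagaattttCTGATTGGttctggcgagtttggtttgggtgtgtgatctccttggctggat
H2-Eb1: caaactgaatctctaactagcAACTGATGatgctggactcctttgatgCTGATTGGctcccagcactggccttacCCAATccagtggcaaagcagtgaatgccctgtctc
H2-DMb1: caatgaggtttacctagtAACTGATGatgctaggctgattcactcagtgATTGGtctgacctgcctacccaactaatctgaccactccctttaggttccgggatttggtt
H2-K1: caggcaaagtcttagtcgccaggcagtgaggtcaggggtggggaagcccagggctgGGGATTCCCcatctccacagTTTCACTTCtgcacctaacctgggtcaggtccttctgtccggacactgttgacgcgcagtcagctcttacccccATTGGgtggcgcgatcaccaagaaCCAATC
H2-D1: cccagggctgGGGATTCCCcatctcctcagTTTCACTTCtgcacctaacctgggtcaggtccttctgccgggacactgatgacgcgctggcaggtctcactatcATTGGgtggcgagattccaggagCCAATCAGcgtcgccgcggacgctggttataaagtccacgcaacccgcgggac
B2m: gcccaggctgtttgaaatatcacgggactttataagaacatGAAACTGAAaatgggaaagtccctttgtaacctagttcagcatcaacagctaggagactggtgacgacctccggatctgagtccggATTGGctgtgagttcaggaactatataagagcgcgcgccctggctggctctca

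The H2-Aa stretch is chr17:34287824-34287933 on the minus strand, H2-Eb1 chr17:34305757-34305866 on the plus strand and H2-DMb1 chr17:34153081-34153190 on the plus strand. H2-K1 is chr17:34000334-34000513 on the minus strand, H2-D1 chr17:35262914-35263093 on the plus strand and that of B2m is chr2:122147507-122147686 on the plus strand. The table held 7 of the 10 genes. H2-Ab1, Cd74 and Ciita are named only, and H2-DMa was left out because its listed start lies 9664 bases from the deposited gene start. Positions below count back from the start, whose upstream neighbour is -1. Letters were searched on both strands over 300 bases (250 before and 50 after the start) and were chosen with these sequences in view.

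In the class II promoters the Y box CTGATTGG was found in H2-Aa from -51 and in H2-Eb1 from -62, while H2-DMb1 held only its inner letters ATTGG, from -61. Of 32851 RefSeq promoters of the same length, 4.1% held CTGATTGG and 37.4% held ATTGG, which lies within it. The X box letters AACNGATG, present in 2.32% of promoters, stood at -89 in H2-Eb1 and at -92 in H2-DMb1. H2-Aa had no match to them but held TGACGTCA, the letters of an X2 element, from -74, a match shared by 1.79% of promoters. H2-Aa and H2-Eb1 thus had an X or X2 match upstream of a Y box match, and H2-DMb1 an X box match upstream of the inner letters alone, which are common.

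In the class I heavy chain promoters the palindrome GGGATTCCC, a kappa B site, was found at -124 in H2-K1 and at -170 in H2-D1. Of 32851 promoters, 116 held it, which is 0.353%. Both heavy chain genes then had GAANNGAAA, an interferon element read on the opposite strand, from -104 in H2-K1 and from -150 in H2-D1, as did 7.52% of promoters. The Y box letters stood on the opposite strand from -53 in H2-D1 and across the start, from -6, in H2-K1, so the last capitals of the H2-K1 stretch are a cut-off match. B2m held neither the kappa B nor the GAANNGAAA letters, but had GAAANNGAA, letters of an interferon-stimulated response element, from -139, a match in 8.56% of promoters, and ATTGG from -53. A letter match is a description of the sequence and not a measured binding site.

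**Figure D1:**
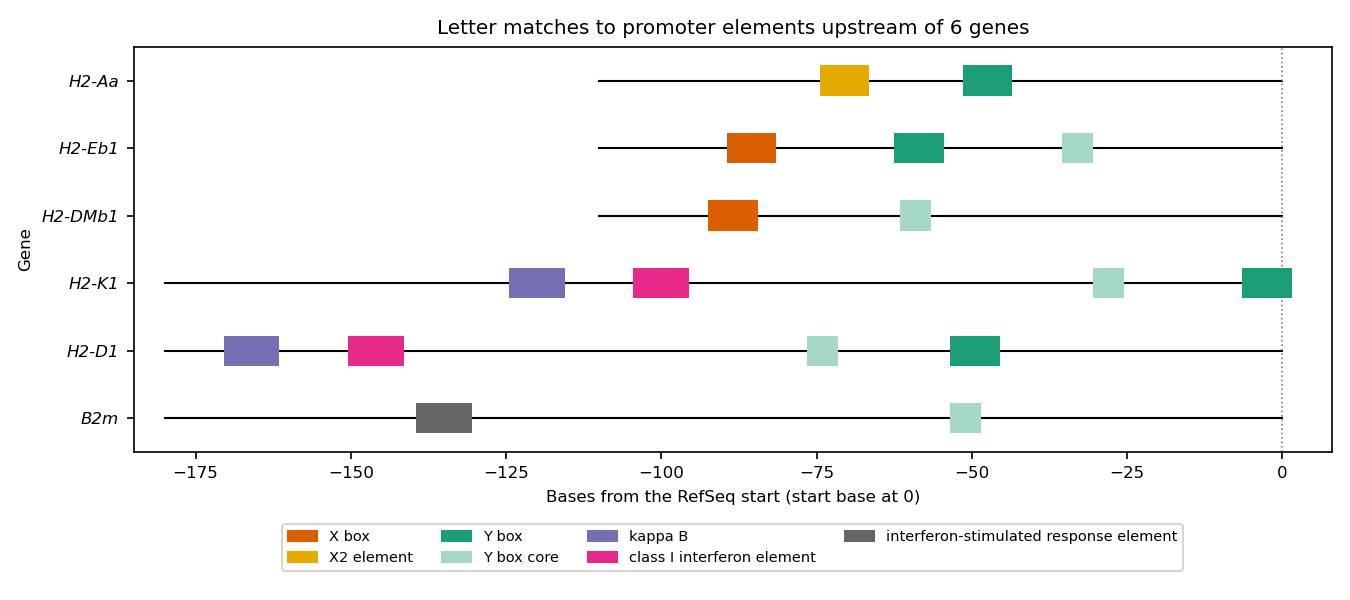
Each line is the stretch printed above for 1 gene, drawn by its distance in bases from the RefSeq start, and each coloured block is a match to 1 searched element. H2-Aa and H2-Eb1 have an X or X2 match upstream of a Y box match, H2-DMb1 has an X box match upstream of the inner letters ATTGG alone, and H2-K1 and H2-D1 share a kappa B match followed by an interferon element.

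Levels in the tumors are given as CPM scaled between libraries by TMM. The 3 classical class II chain genes lie close together on chromosome 17 of mm10, H2-Ab1 at 34263209 to 34269418, H2-Aa at 34282744 to 34287827 and H2-Eb1 at 34305877 to 34316199. H2-Aa, the I-A alpha chain, was at 223, 544 and 476 CPM among tumors 3, 4 and 5 of YAP-S CCA, against 43.1, 54.1 and 109 CPM among tumors 1, 6 and 8 of YAP-SY CCA. In mixed tumors it was at 94.8, 185 and 152 CPM for tumors 2, 7 and 9 of YAP-S, against 105, 401 and 229 CPM for tumors 3, 5 and 9 of YAP-SY. The lowest YAP-S CCA tumor was above the highest YAP-SY CCA tumor, while the ranges of the mixed groups overlapped each other and reached into those of the CCA groups.

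H2-Ab1, the I-A beta chain, was at 137, 290 and 253 CPM among YAP-S CCA tumors, against 18.01, 19.2 and 53.9 CPM among YAP-SY CCA tumors. H2-Eb1, the I-E beta chain, was at 177, 407 and 369 CPM among YAP-S CCA tumors, against 24.7, 38.0 and 77.3 CPM among YAP-SY CCA tumors. In mixed tumors H2-Ab1 was at 46.7, 95.4 and 69.9 CPM in YAP-S and at 48.1, 155 and 137 CPM in YAP-SY. Both genes repeated the order of H2-Aa within YAP-S CCA, where tumor 3 was lowest and tumor 4 highest. H2-Eb1 in mixed tumors was at 78.3, 125 and 108 CPM in YAP-S and at 76.2, 316 and 166 CPM in YAP-SY.

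Cd74 encodes the invariant chain, which fills the class II groove until the endosome is reached. Its level was 396, 1221 and 957 CPM among YAP-S CCA tumors, against 89.8, 55.7 and 198 CPM among YAP-SY CCA tumors. In mixed tumors it was 179, 310 and 254 CPM in YAP-S and 165, 665 and 438 CPM in YAP-SY. H2-DMa and H2-DMb1 encode the chains of H2-M, which exchanges the invariant chain remnant for a peptide. They lie at 34135182 to 34139101 and 34153072 to 34160230 on chromosome 17. H2-DMa was at 12.1, 31.1 and 29.1 CPM among YAP-S CCA tumors, against 3.87, 1.57 and 6.93 CPM among YAP-SY CCA tumors. H2-DMb1 was at 15.1, 43.9 and 32.4 CPM among YAP-S CCA tumors, against 3.17, 2.66 and 6.54 CPM among YAP-SY CCA tumors. In mixed tumors H2-DMa ran from 5.27 to 11.1 CPM in YAP-S and from 5.42 to 25.8 in YAP-SY, and H2-DMb1 from 6.14 to 11.7 and from 6.72 to 17.7.

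Ciita, on chromosome 16 at 10488178 to 10527564, showed the same pattern at a low level. It was at 12.3, 26.5 and 27.9 CPM among tumors 3, 4 and 5 of YAP-S CCA, against 1.43, 1.76 and 4.34 CPM among tumors 1, 6 and 8 of YAP-SY CCA. Mixed tumors 2, 7 and 9 of YAP-S read 3.69, 10.7 and 6.64 CPM, against 5.19, 26.5 and 11.8 CPM for mixed tumors 3, 5 and 9 of YAP-SY. YAP-SY mixed tumor 5 thus reached the level of the YAP-S CCA tumors.

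The class I genes covered a narrower range. H2-K1, a classical heavy chain on chromosome 17 at 33996017 to 34000333, was at 1119, 1579 and 1314 CPM among YAP-S CCA tumors, against 706, 633 and 937 CPM among YAP-SY CCA tumors. Mixed tumors held 741, 813 and 805 CPM in YAP-S and 703, 687 and 1345 CPM in YAP-SY. H2-D1, the other classical heavy chain, at 35262730 to 35267499 on that chromosome, was at 659, 989 and 790 CPM among YAP-S CCA tumors, against 315, 254 and 452 CPM among YAP-SY CCA tumors. Its mixed tumors held 361, 445 and 422 CPM in YAP-S and 330, 429 and 600 CPM in YAP-SY. Both heavy chains were highest in the YAP-S CCA tumors except for H2-K1 in YAP-SY mixed tumor 9, which fell within their range.

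B2m, on chromosome 2 at 122147686 to 122153083, did not follow the heavy chains it pairs with. Its level was 1204, 2072 and 1668 CPM among YAP-S CCA tumors, against 1846, 1778 and 1627 CPM among YAP-SY CCA tumors. Mixed tumors held 1249, 1127 and 1374 CPM in YAP-S and 1453, 1838 and 1391 CPM in YAP-SY. The CCA groups overlapped fully, while the mixed groups were apart by the small step from 1374 to 1391 CPM, as were those of 4.3% of all genes in this direction.

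**Figure D2:**
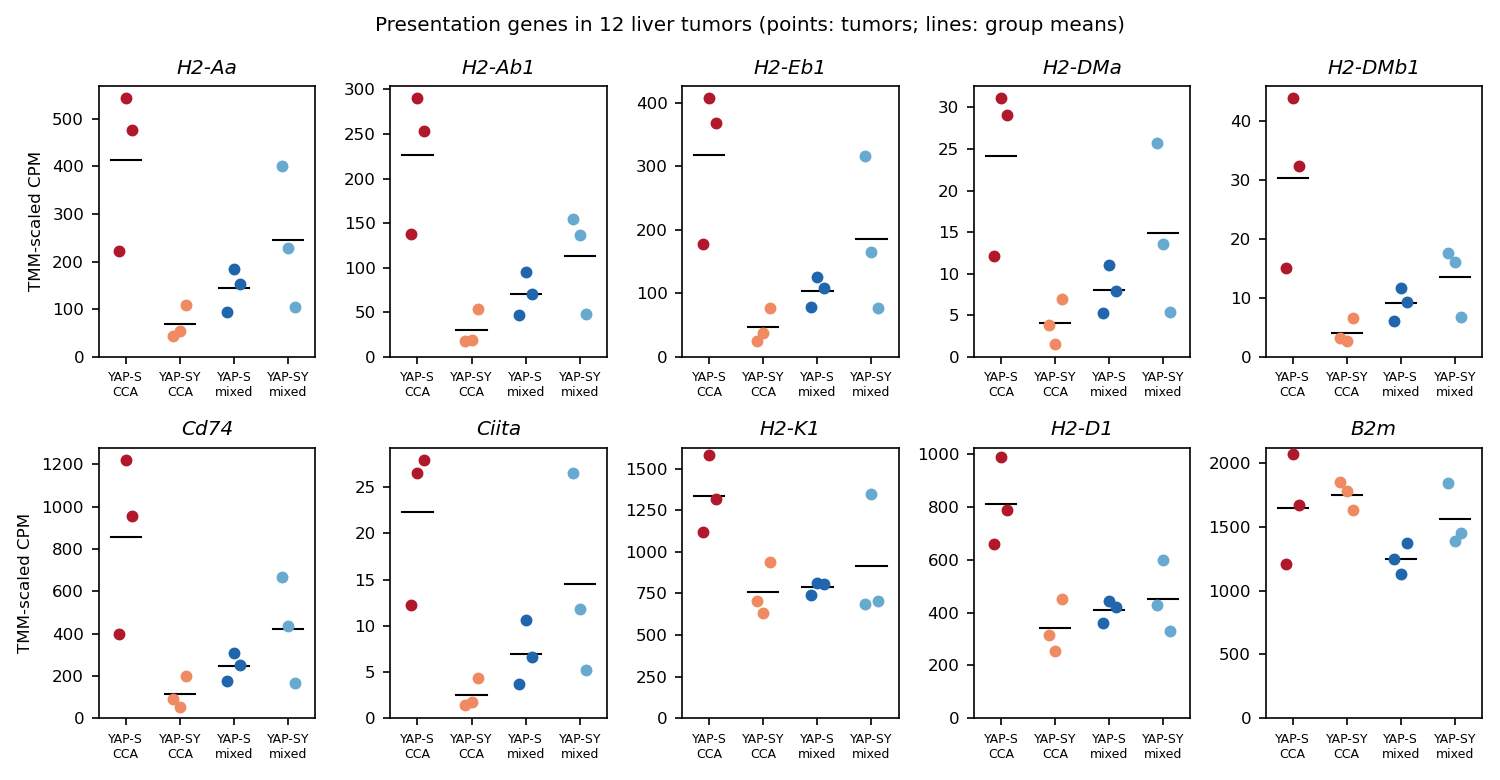
TMM-scaled CPM of each gene (vertical axis, from 0) in the 4 tumor groups (horizontal axis); points are tumors and lines are means of 3. For 9 genes every YAP-S CCA tumor lies above every YAP-SY CCA tumor, and for B2m the CCA groups overlap.

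Group means ordered the 7 class II genes, H2-K1 and H2-D1 alike: YAP-S CCA, YAP-SY mixed, YAP-S mixed, YAP-SY CCA. Neighbours in that order overlapped between tumors for most genes. The exceptions were H2-D1, whose YAP-S CCA tumors were all above the YAP-SY mixed ones, and H2-Eb1, whose YAP-S mixed tumors were all above the YAP-SY CCA ones. For B2m the order of means was YAP-SY CCA, YAP-S CCA, YAP-SY mixed, YAP-S mixed, and the last neighbours did not overlap.

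Per kb of exons, the level of B2m was highest of the 10 genes in every group, at 1916 ± 505 CPM per kb (SD, n = 3) in YAP-S CCA. Cd74 had the second highest mean there at 608 ± 299, ahead of H2-K1 at 513 ± 88.5 and H2-D1 at 315 ± 64.4. Per kb, though, Cd74 was below H2-K1 in tumor 3 of YAP-S CCA. In YAP-SY CCA the heavy chains, at 291 ± 60.8 for H2-K1 and 132 ± 39.3 for H2-D1, had means above that of Cd74 at 81.1 ± 52.5. The class II chains followed in the order H2-Eb1, H2-Aa and H2-Ab1 in all 4 tumor groups, with per-length means of 268 ± 104, 221 ± 90.3 and 139 ± 48.6 in YAP-S CCA. Levels of these neighbours overlapped between the tumors of a group, but within each tumor H2-Ab1 was the lowest of these chains per kb. Ciita had the lowest level, at 4.24 ± 1.65 CPM per kb for YAP-S CCA and 0.478 ± 0.303 for YAP-SY CCA.

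Within CCA tumors, 9 of the 10 genes fell in YAP-SY compared with YAP-S and none rose (edgeR quasi-likelihood F-test, Benjamini-Hochberg adjusted p under 0.05). Of all 18318 genes tested, 20.8% were called lower in this comparison and 39.1% in either direction, so a call was common here. The 10 genes had a median log2 fold change of -2.68, against -0.0011 over all genes. The all-gene median depends on the scaling, and by total count alone it was -0.56. TMM factors ran from 1.145 to 1.295 in YAP-S CCA and from 0.775 to 0.832 in YAP-SY CCA. All 9 genes that fell had no overlap between the groups, against 28.3% of all genes without overlap and lower. The labels do not say that tumors came from separate animals, so the p-values measure the spread between these tumors.

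All 7 class II genes fell, with log2 changes from -2.55 to -3.15. Ciita changed by -3.15 (SE 0.63, adjusted p = 0.00219, edgeR), which is 8.89-fold lower. Cd74 changed by -2.91 (SE 0.58, adjusted p = 0.00213) and H2-Ab1 by -2.90 (SE 0.52, adjusted p = 0.00125) on the same log2 scale. The smallest class II change was that of H2-DMa, at -2.55 (SE 0.60, adjusted p = 0.00579). H2-DMb1 at -2.89, H2-Eb1 at -2.77 and H2-Aa at -2.59 lay between them. Differences between these 7 values were not tested.

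The class I heavy chains fell by smaller values, and the difference between genes was not tested. H2-D1 changed by -1.26 (SE 0.25, adjusted p = 0.0024, edgeR), a 2.39-fold lower level, and H2-K1 by -0.82 (SE 0.25, adjusted p = 0.023), a 1.76-fold lower level. H2-K1 did not pass the threshold without YAP-S CCA tumor 4, where it was -0.68, without YAP-SY CCA tumor 1, at -0.77, or without tumor 6, at -0.70. For B2m the log2 fold change was 0.09, which did not pass (SE 0.20, adjusted p = 0.761), and its sign was negative when libraries were scaled by total count alone, at -0.48, or when YAP-S CCA tumor 3 was left out, at -0.11. H2-K1, H2-D1 and the nonclassical class I genes are close copies of each other, and reads that the counting could not place may be split between them. Their separate values are uncertain to that extent.

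The ratio of H2-K1 to H2-D1 counts was 1.65 ± 0.05 (SD, n = 3) in YAP-S CCA, between 1.60 and 1.70, and 2.27 ± 0.21 in YAP-SY CCA, between 2.07 and 2.50. The groups did not overlap, and the two-sided exact permutation p was 0.1, the smallest that 3 tumors against 3 allow. The ratio of H2-Aa to H2-Ab1 counts was 1.79 ± 0.15 and 2.41 ± 0.40 in the same groups, with no overlap and the same exact permutation p of 0.1. That of H2-Eb1 to H2-Ab1 overlapped, at 1.29 to 1.46 in YAP-S CCA and 1.37 to 1.98 in YAP-SY CCA (exact permutation p = 0.5). In mixed tumors all of these ratios overlapped between YAP-S and YAP-SY. The exact permutation p there was 0.9 for H2-K1 to H2-D1, 0.8 for H2-Aa to H2-Ab1 and 0.9 for H2-Eb1 to H2-Ab1.

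**Figure D3:**
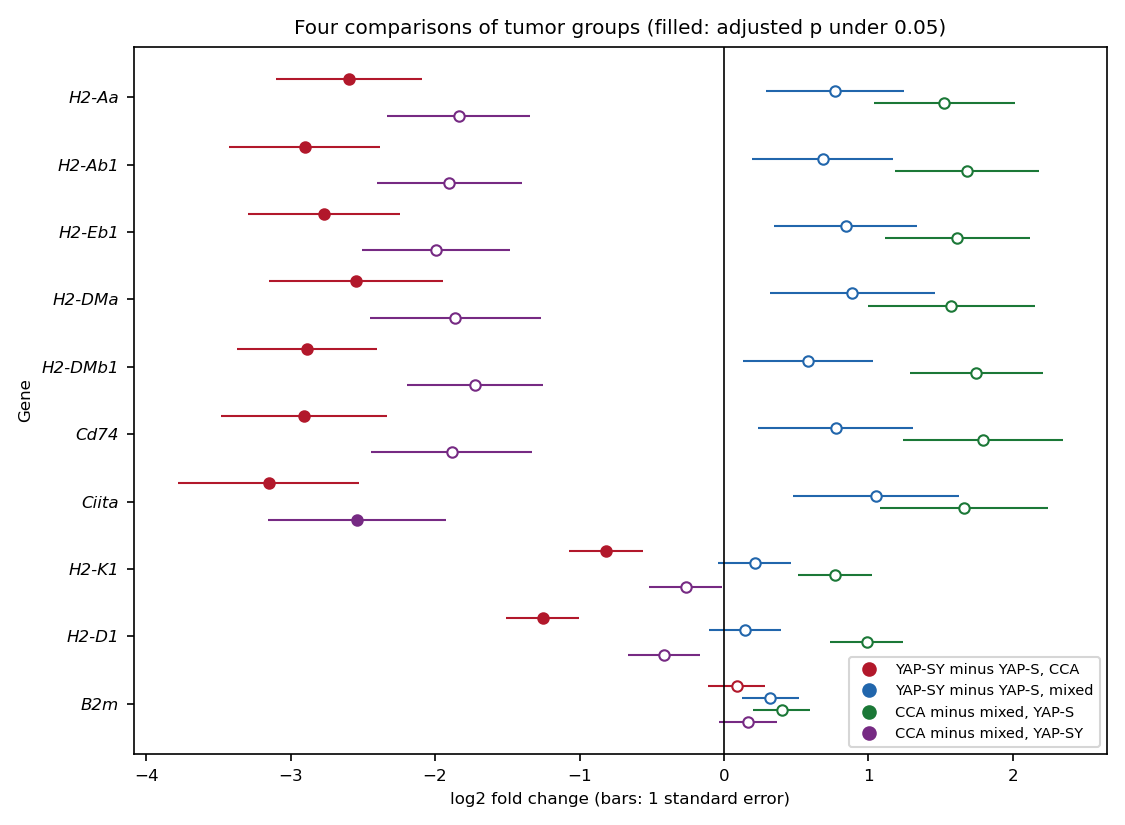
Log2 fold change of each gene (horizontal axis, bars 1 standard error) in 4 comparisons of tumor groups; filled points passed the threshold. The 9 filled red points are the genes that fell in YAP-SY CCA, and Ciita is the filled point of CCA against mixed tumors within YAP-SY.

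The remaining genes of the pathway were read from lists by role, written down with earlier results of these data known. The list counts of this comparison, here and in the paragraphs that follow, stand beside 20.8% of all genes called lower and 18.3% higher. Of 12 further class II genes tested, 6 fell and 1 rose in YAP-SY CCA, with a median of -0.73. When scaled by total count alone, 10 fell. That scaling moved the median of all genes to -0.56, and 8824 of 18318 genes were called in either direction. H2-Eb2, a second I-E beta chain gene, changed by -3.81 (SE 0.67, adjusted p = 0.00114, edgeR) from a mean of 2.14 CPM in YAP-S CCA, and Ifi30, the thiol reductase of endosomes, by -1.71 (SE 0.31, adjusted p = 0.00127). Ctsl, a lysosomal protease that also cuts the invariant chain, rose by 0.94 (SE 0.17, adjusted p = 0.00125), or by 0.38 when scaled by total count alone. Rfx5, Rfxap and Rfxank, the subunits of the X box complex, are outside the rule for named genes and were singled out after their values were seen. Their log2 fold changes were 0.03, -0.22 and -0.07, with adjusted p of 0.912, 0.399 and 0.787 in edgeR. Whether the change of Ciita differs from theirs was not tested.

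Among 14 genes that supply class I with peptides, 6 fell and 1 rose, beside 20.8% and 18.3% of all genes. Their median was -0.58. When scaled by total count alone, 10 fell here too, beside the same all-gene median of -0.56. Tap1 and Tap2, the subunits of the peptide transporter, changed by -1.93 (SE 0.39, adjusted p = 0.00247, edgeR) and -1.67 (SE 0.34, adjusted p = 0.0025), while Tapbp, the chaperone tapasin, fell from a mean of 143 to 71.5 CPM (adjusted p = 0.00247). Nlrc5, the class I counterpart of Ciita, was singled out after its value was seen. Its log2 value of -0.93 missed the threshold (SE 0.35, adjusted p = 0.0509).

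Of 8 nonclassical class I genes, 4 fell and 1 rose, with a median of -1.03. H2-M3, which shows bacterial formyl peptides, changed by -1.69 (SE 0.27, adjusted p = 0.000636, edgeR) and H2-Q4 by -1.58 (SE 0.32, adjusted p = 0.00252). Cd1d1, which presents lipids to natural killer T cells, rose by 1.22 (SE 0.16, adjusted p = 0.000246), from a mean of 145 to 337 CPM, and by 0.65 when scaled by total count alone.

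The interferon gamma axis held 9 genes, of which 7 fell and 1 rose, with a median of -1.27. With 1 CCA library left out, this count was 4 in the absence of tumor 4 from YAP-S and of either tumor 1 or tumor 6 from YAP-SY. The gene that rose, the kinase gene Jak1, at 0.36 (SE 0.13, adjusted p = 0.0403, edgeR), was named after its value was seen and passed in none of the 6 fits without 1 CCA tumor. Ifngr1 and Ifngr2, the receptor chains, changed by -1.27 (SE 0.17, adjusted p = 0.000262, edgeR) and -0.67 (SE 0.18, adjusted p = 0.011). Irf8, a transcription factor of dendritic cells and macrophages that also responds to interferon gamma, changed by -2.19 (SE 0.35, adjusted p = 0.000693). Ifng itself is among the 7 that fell, but lies near the floor, at a mean of 0.28 CPM among YAP-S CCA tumors, against 0 in YAP-SY CCA. Its counts were 1, 29 and 21 in tumors 3, 4 and 5 of YAP-S CCA, and no fold is given for it. Of 6 costimulation genes 4 fell, or 2 without YAP-SY CCA tumor 1, among them Cd86, the ligand of CD28, by -1.36 (SE 0.30, adjusted p = 0.00387). Cd40, the receptor by which T cells license presenting cells, changed by -1.94 (SE 0.54, adjusted p = 0.0132). Without YAP-SY CCA tumor 6 it did not pass, at -1.64.

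Markers of immune cells fell with the class II genes. All 6 leukocyte markers fell, by -1.12 to -2.47, and their summed level ran from 169 to 258 CPM among YAP-S CCA tumors, against 58.2 to 104 in YAP-SY CCA. Of 9 dendritic cell markers 6 fell and none rose, with a summed level of 69.2 to 100.1 CPM and 25.9 to 34.0. With 1 CCA tumor left out, 4 to 7 fell, the fewest without YAP-S CCA tumor 5. Itgax, which encodes CD11c, changed by -2.42 (SE 0.35, adjusted p = 0.000393, edgeR) and Flt3, the receptor that drives dendritic cell development, by -2.55 (SE 0.59, adjusted p = 0.00484). Xcr1, which marks cross-presenting dendritic cells, changed by -2.78 (SE 0.63, adjusted p = 0.00457).

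Macrophage markers were split, with 5 of 11 lower and 3 higher, beside 20.8% and 18.3% of all genes. Their summed level was 560 to 756 CPM among YAP-S CCA tumors, against 320.0 to 510 in YAP-SY CCA. With any 1 CCA tumor left out, 4 to 6 macrophage markers were lower and 2 higher. C1qc, a complement chain, changed by -1.54 (SE 0.34, adjusted p = 0.00404, edgeR), while Timd4 and Vsig4, both typical of Kupffer cells, rose by 0.89 (SE 0.17, adjusted p = 0.00196) and 0.91 (SE 0.18, adjusted p = 0.00197). Scaled by total count alone, Timd4 and Vsig4 did not pass, at 0.32 and 0.35. None of 6 B cell markers passed in edgeR, and 0 had an unadjusted p under 0.05, with a summed level of 4.14 to 6.83 CPM among YAP-S CCA tumors, against 3.81 to 10.5 in YAP-SY CCA, and 0 passed in DESeq2 or limma-voom. Of 8 T and NK cell markers 6 fell, but 0 did so under limma-voom with sample quality weights. Without both YAP-SY tumors whose columns carried a different name (CCA tumor 8 and mixed tumor 3), 3 fell. When any single CCA library other than tumor 3 of YAP-S was left out, 2 or 3 fell. In bulk tumors fewer cells of a type and less RNA per cell cannot be told apart.

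Fibroblast, cholangiocyte and hepatocyte markers moved as well, while the endothelial list was split. Of 6 endothelial markers 2 fell and 1 rose, with a median log2 fold change of 0.11. Over all genes, 20.8% fell and 18.3% rose, so these endothelial counts are near the share of all genes. With 1 CCA tumor left out, 2 fell and 0 to 2 rose. Of 7 fibroblast markers 6 fell, with a summed level of 1858 to 2344 CPM among YAP-S CCA tumors, against 426 to 599 in YAP-SY CCA, 7 of 8 cholangiocyte markers fell (4 without YAP-SY CCA tumor 6, or without both renamed YAP-SY tumors), and 6 of 8 hepatocyte markers rose. The part of these cell markers in the fall of the class II genes was not tested.

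The level of Cd74 was also set against that of a leukocyte gene. Per CPM of Ptprc, which encodes the pan-leukocyte protein CD45, Cd74 stood at 11.2, 18.5 and 15.1 in YAP-S CCA and at 4.56, 2.34 and 6.73 in YAP-SY CCA. The means were 14.9 ± 3.6 and 4.54 ± 2.19 (SD, n = 3), the groups did not overlap, and the two-sided exact permutation p was 0.1, the smallest possible with 3 against 3. In mixed tumors the ratio was 5.51, 7.59 and 7.62 in YAP-S and 5.11, 8.97 and 13.8 in YAP-SY, with overlap and an exact permutation p of 0.5. The result in CCA varied with the gene chosen as denominator, an alternative added after seeing the data. The groups did not overlap for 5 of the 6 leukocyte markers, but they did per CPM of Coro1a, at 13.0 to 37.0 in YAP-S CCA and 12.5 to 22.8 in YAP-SY CCA (exact permutation p = 0.4). They also overlapped per CPM of the dendritic cell marker Itgax, at 9.90 to 21.8 and 8.41 to 15.1 (exact permutation p = 0.3).

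Within mixed tumors, none of the 10 genes passed the test between YAP-SY and YAP-S, and 0 had an unadjusted p under 0.05. Neither did any other gene in edgeR (percent called 0); 551 genes, or 3.01%, had an unadjusted p under 0.05, and DESeq2 called 11 genes, with none of the 10 among them. The log2 fold changes were 0.58 (H2-DMb1) to 1.05 (Ciita) for class II and 0.15 to 0.32 for class I, each with an adjusted p of 0.9994. The SE of these values was 0.45 to 0.58 for class II, from a fit in which all 4 groups share 1 estimate of the spread. With sample quality weights in limma-voom, Cd74, H2-Aa, H2-Ab1, H2-Eb1, H2-D1 and H2-K1 had values on the other side of 0, at -0.08 to -0.21.

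The YAP-SY effect was then compared between CCA and mixed tumors in the same fit. It was lower in CCA for 8 of the 10 genes, against 10.2% of all genes lower and 15.2% in either direction. The difference was -4.21 (SE 0.85, adjusted p = 0.0092, edgeR) for Ciita and -3.68 (SE 0.78, adjusted p = 0.0114) for Cd74. H2-Aa, H2-Ab1, H2-Eb1, H2-DMa and H2-DMb1 had differences of -3.36 to -3.61. For H2-D1 the difference was -1.40 (SE 0.36, adjusted p = 0.0231), and it did not pass without YAP-S CCA tumor 4, without YAP-S mixed tumor 2, or with sample quality weights. H2-DMa, at -3.43, did not pass without YAP-S mixed tumor 2 (-3.20) or with sample quality weights (-2.19). H2-K1 at -1.03 (SE 0.36, adjusted p = 0.068) and B2m at -0.23 (SE 0.28, adjusted p = 0.608) did not pass. The leukocyte markers differed in the same way, lower for 6 of 6, but for 1 or 2 when a single one of 6 libraries was left out (tumors 4 and 5 of YAP-S CCA, 2 and 9 of YAP-S mixed, 6 of YAP-SY CCA and 5 of YAP-SY mixed) and for 2 with sample quality weights. Of the fibroblast markers 6 of 7 were lower, in each of the 12 fits without 1 tumor as well. Cholangiocyte markers were lower for 4 of 8 (2 without YAP-S mixed tumor 2), and hepatocyte markers higher for 5 of 8 (2 without any 1 of tumors 3 and 5 of YAP-S CCA and 2 and 9 of YAP-S mixed, 3 to 5 without any other, 1 when scaled by total count alone). The part of these markers in the difference was not tested.

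Within YAP-S, CCA tumors had higher values than mixed tumors for all 10 genes, and none passed. No gene at all passed in edgeR (percent called 0), while 19.8% had an unadjusted p under 0.05, and 9 of the 10 genes had no overlap between the groups, against 20.2% of all genes without overlap and higher. Class II log2 fold changes were 1.53 to 1.79 with adjusted p of 0.0754 to 0.162, H2-K1 was at 0.77, H2-D1 at 0.99 and B2m at 0.40. This comparison depended on the tool: 5 of the 10 passed in DESeq2, 9 in limma-voom with sample quality weights and 9 when the fit held only these groups. In the same settings 1514 of 18318, 3609 of 18318 and 2393 of 17782 genes passed. In DESeq2, 2139 of the genes had no adjusted p.

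Within YAP-SY, CCA tumors had lower values than mixed tumors for 9 of the 10 genes, all but B2m, and Ciita alone passed. Its log2 fold change for CCA against mixed tumors was -2.54, with an SE of 0.62 and an adjusted p of 0.047 in edgeR, where 2.7% of all genes were called lower and 2.9% in either direction. It did not pass without YAP-SY CCA tumor 1 or 6 or without YAP-SY mixed tumor 5 or 9. The other class II genes were at -1.72 to -2.00 with adjusted p of 0.0563 to 0.101, and H2-K1, H2-D1 and B2m at -0.27, -0.41 and 0.17. Without YAP-SY mixed tumor 3, all 7 class II genes passed. From the lists, 6 genes passed, all lower. The smooth muscle actin gene Acta2, a fibroblast marker, changed by -1.77 (SE 0.24, adjusted p = 0.0127), the dendritic cell marker Itgax by -1.67 (adjusted p = 0.0304) and H2-Eb2 by -2.84 (adjusted p = 0.0436). The cholangiocyte markers Sox9 and Cd24a changed by -1.55 and -1.51, and the endothelial marker Vwf by -0.91. With 1 of the 6 tumors left out in turn, Acta2 lost its call in 1 fit (without YAP-SY CCA tumor 6), Itgax in 3, Sox9 and Vwf in 4 each, H2-Eb2 in 5 and Cd24a in 6. The comparisons of this and the preceding 4 paragraphs share tumors with each other.

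Across the 12 tumors the class II genes varied together. Pearson correlations of log2 CPM for their 21 pairs ran from 0.943 to 0.996, with a median of 0.981. Those of the 3 class I pairs ran from 0.0927 to 0.945, where only H2-K1 with H2-D1 was high, and those of class II with class I genes from 0.0045 to 0.931. The tumors share 4 groups and their cell makeup, so these values are descriptions. In each group 1 tumor was high for all class II genes or nearly so. Mixed tumor 7 of YAP-S, CCA tumor 8 of YAP-SY and mixed tumor 5 of YAP-SY were highest in their groups for 7 of 7, and YAP-S CCA tumor 4 for 6 of 7, with tumor 5 highest for Ciita. YAP-S CCA tumor 3, YAP-S mixed tumor 2 and YAP-SY mixed tumor 3 were lowest for 7 of 7.

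The mean log2 CPM of the class II genes followed that of the 6 leukocyte markers with a correlation of 0.986 over 12 tumors. It was 6.02, 7.33 and 7.14 in YAP-S CCA, where the leukocyte mean was 4.70, 5.26 and 5.28, and 3.55, 3.43 and 4.86 in YAP-SY CCA, where it was 3.25, 3.04 and 3.95. The correlation was 0.977 with the interferon gamma axis, 0.960 with dendritic cell markers and 0.870 with fibroblast markers. It was 0.187 with B cell markers, 0.083 with endothelial markers and -0.832 with hepatocyte markers. The class I mean correlated by 0.945 with the peptide supply genes and by 0.745 with the leukocyte markers.

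**Figure D4:**
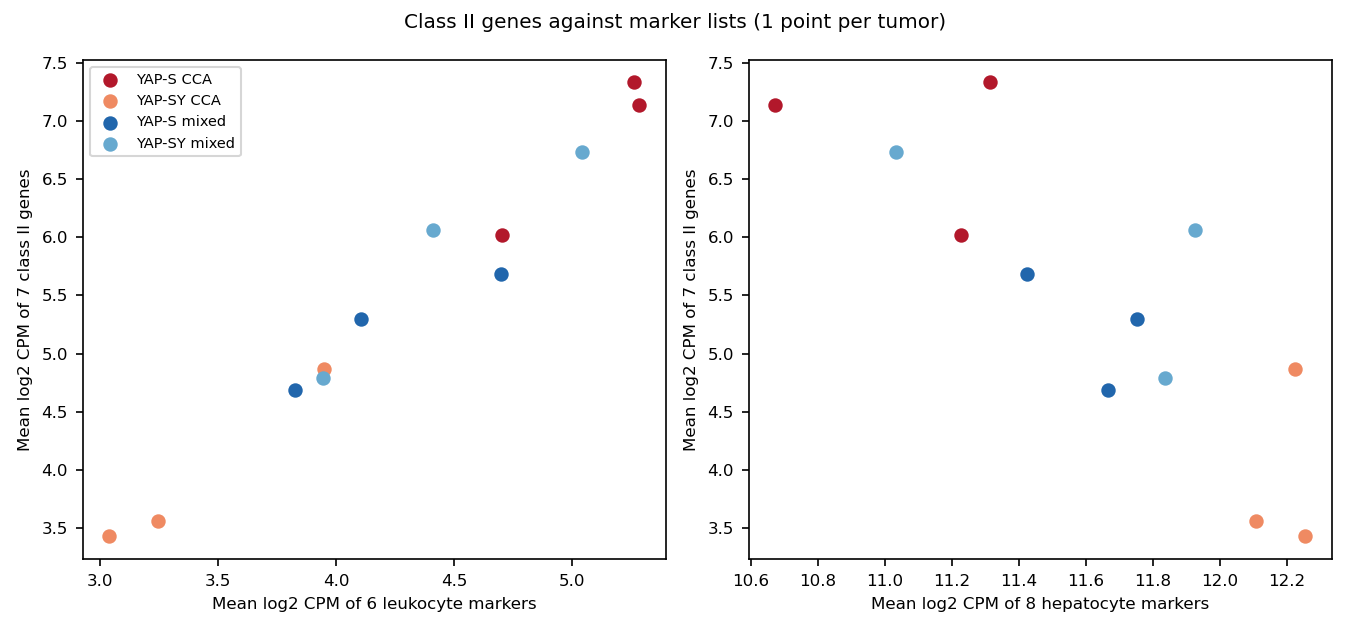
Mean log2 CPM of the 7 class II genes (vertical axis) against that of 6 leukocyte markers (left) and 8 hepatocyte markers (right), 1 point per tumor, coloured by group. Tumors high in leukocyte markers were high in class II genes (correlation 0.986), and tumors high in hepatocyte markers were low (-0.832).

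Outside the lists, 10484 tested genes with a mean of at least 5 CPM were ranked by likeness to these patterns. The genes most like the class II mean were Lsp1 (0.983), Hvcn1 (0.979), Slamf9 (0.976), Fmnl1 (0.974) and Itgb2 (0.973), the last of which encodes the shared beta chain of leukocyte integrins. Lsp1, an actin-binding protein of leukocytes, was at 20.3, 36.6 and 34.1 CPM among YAP-S CCA tumors, against 4.83, 4.05 and 8.76 in YAP-SY CCA. Among the genes most like the class I mean were Taf8 (0.938), Lhfpl2 (0.926), Parp3 (0.922) and Lfng (0.921). Taf8, a subunit of the general factor TFIID that lies on chromosome 17 as the H2 genes do, covered a small range, from 10.3 to 15.4 CPM over all tumors.

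SB1 cells had class I but almost no class II RNA. H2-K1 was at 183, 176 and 302 CPM in samples 1, 2 and 3, H2-D1 at 121, 140 and 231, and B2m at 157, 161 and 262. Cd74 was at 0.786, 1.38 and 5.56 CPM, H2-DMa at 0.327, 0.434 and 1.03, and H2-DMb1 at 0.131, 0.158 and 1.18. H2-Aa, H2-Ab1 and Ciita had at most 1 count and H2-Eb1 at most 2 in any sample, under the 3 counts that a true level could hide behind a count of 0, or 0.0982 to 0.118 CPM here. Summed over the 7 genes, class II reached 1.31 to 7.84 CPM, and the 3 class I genes 461 to 796 CPM. The SB1 table was made separately from the tumor table, so the values below are set beside the tumors without a test.

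In the YAP-S CCA tumors, whose genotype label SB1 shares, the same sums were 973 to 2563 CPM for class II and 2981 to 4640 for class I. Per kb of exons, the level of B2m was 225 ± 69.4 CPM in SB1 (SD, n = 3) against 1916 ± 505 in YAP-S CCA, H2-K1 84.5 ± 27.3 against 513 ± 88.5, and H2-D1 63.6 ± 22.9 against 315 ± 64.4. The order of the class I genes was thus the same in the cells and in the tumors, and their levels lower in the cells.

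Genes outside the rule were read in SB1 after their values were seen. RNA of Rfx5, a subunit of the X box complex, was present at 15.8 to 22.3 CPM. RNA of the interferon gamma receptor genes was present as well, Ifngr1 at 78.8 to 92.0 and Ifngr2 at 50.9 to 65.5. Ifng was at 0 in all 3 samples. Leukocyte markers were near 0, with a summed level of 0.474 to 0.799 CPM, Ptprc at 0 in 2 of the samples and none of the 6 at a mean of 1 CPM. Of the dendritic cell markers 4 of 9 were at 0 in all samples, and the summed level of 24.5 to 28.9 CPM came almost wholly from Zbtb46, at 23.8 to 26.6. Macrophage markers summed to 40.1 to 70.5 CPM, of which Csf1r held 36.0 to 66.1, while 8 of 11 were at 0.

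**Figure D5:**
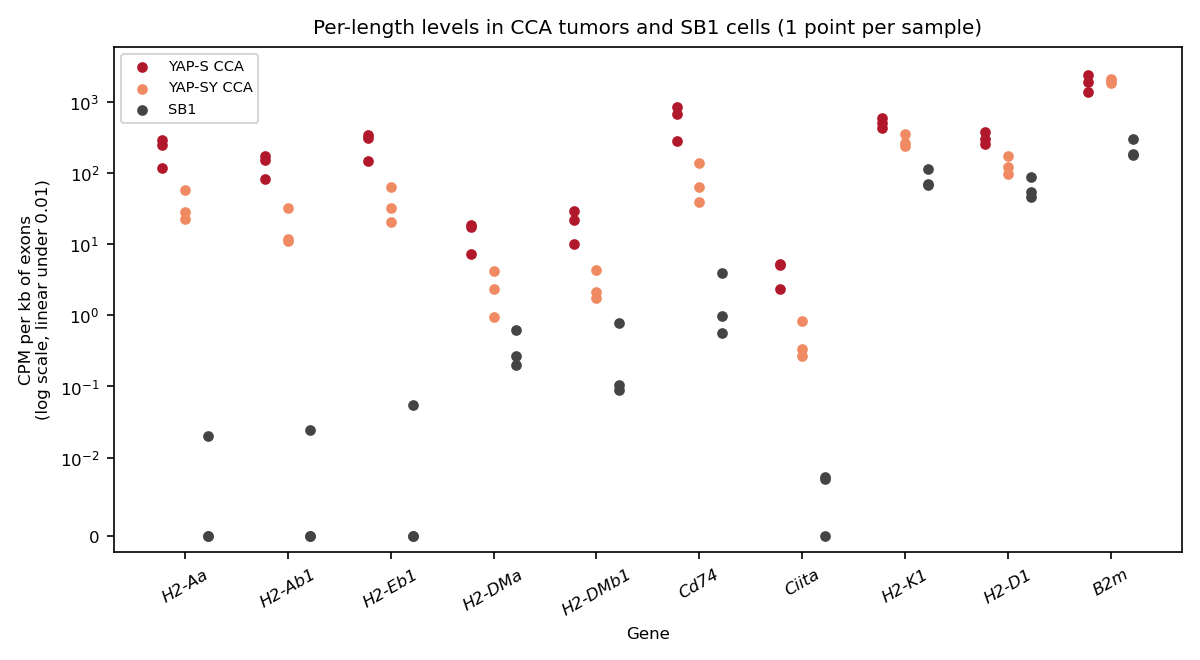
CPM per kb of exons (vertical axis, log scale that turns linear under 0.01) of each gene in YAP-S CCA tumors, YAP-SY CCA tumors and SB1 cells, 1 point per sample. The class I genes are present in all 3 groups, and in SB1 the points of H2-Aa, H2-Ab1, H2-Eb1 and Ciita lie at or near 0.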

How the data were processed

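The authors deposited gene counts for 12 tumors that are named as corrected, and raw gene counts for SB1 in a table of its own; what was corrected is not stated in the sources used here. Libraries were made with a TruSeq mRNA kit, per the labels' protocols. STAR and mm10 are named in the submitters' processing notes; the counting tool and annotation are not given in the sources used here, and whether reads were counted by strand is not known. The 3 columns that match no sample label were not used, and 27 gene symbols that had turned into dates were restored from their identifiers.

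Counts were filtered with filterByExpr by group and scaled by TMM. All 12 tumors entered 1 fit with 1 term per group, tested by quasi-likelihood F-tests in edgeR 4.0.16 under R 4.3.3, with Benjamini-Hochberg adjustment over 18318 genes at 0.05. The SE is the absolute log2 fold change over the square root of F. Log2 CPM used a prior count of 1. SB1 CPM refer to the whole library. CPM per kb used the deposited length, which is shorter than the gene span and was taken as exonic. The script was tested on simulated data. Alternatives were DESeq2 1.42.0 (also its size factors within edgeR), limma-voom with sample quality weights (limma 3.58.1), library size alone, upper quartile factors, no count filter, a fit on the compared groups, and leaving out each tumor. Leaving out both YAP-SY tumors whose columns have a name of their own was added after seeing the data. Depth limits precision at low counts, and values from it alone cover counting error only.

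The 10 genes and the 16 lists were chosen with earlier results of these data known. Named are the 10 genes, up to 3 genes with the smallest p of each list among those past the threshold, and 5 genes most like each class by correlation, apart from those marked as singled out. Of the genes most like class I, 1 is not reported here.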

Additional observations from a re-analysis of the deposited data

Results flagged for a closer look

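The effect of YAP-SY against YAP-S differed between CCA and mixed tumors for 8 of the 10 genes by the test of the difference itself in edgeR, each effect being a log2 fold change. H2-Aa changed by -2.59 in CCA and had 0.77 in mixed tumors, a difference of -3.36 (adjusted p = 0.01). H2-Ab1 had -2.90 and 0.68, a difference of -3.58 (adjusted p = 0.00835), and H2-Eb1 had -2.77 and 0.84, a difference of -3.61 (adjusted p = 0.00868). For the H2-M chains the differences were -3.43 (adjusted p = 0.0186) for H2-DMa and -3.47 (adjusted p = 0.0074) for H2-DMb1. Cd74 differed by -3.68 (adjusted p = 0.0114) and Ciita by -4.21 (adjusted p = 0.0092). H2-D1 had -1.26 in CCA and 0.15 in mixed tumors, a difference of -1.40 (adjusted p = 0.0231). All 6 leukocyte markers passed in the same direction, but 1 or 2 when any of 6 single libraries was left out. Fibroblast (6 of 7) and cholangiocyte (4 of 8) markers also differed lower, and hepatocyte markers (5 of 8) higher. No group of this design has the 4 or more samples that a test for an outlying sample needs.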

How the results depend on the processing

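No paired analysis was possible because the groups compared share fewer than 2 replicate numbers. The 9 genes that fell in YAP-SY CCA passed in all 8 other settings, among them the fit without both YAP-SY tumors whose columns have a name of their own (the renamed tumors), and 8 to 9 passed when 1 tumor was left out (5121 to 6869 genes in all). Scaled by library size alone, the calls of this comparison split into 760 higher and 8064 lower, against 3358 and 3813. For the difference between histologies, 4231 genes passed in DESeq2 and 4330 with library size alone (150 higher, 4180 lower), against 2788; without 1 tumor, 1058 to 3077 genes and 6 to 9 of the 10 passed, the lowest without YAP-S mixed tumor 2. Sample quality weights in limma-voom gave 6 of the 10, without H2-D1 and H2-DMa. In mixed tumors DESeq2 called 11 genes, and every other setting 0.

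CCA against mixed within YAP-S called 0 genes in edgeR, but 117 with DESeq2 size factors, 137 with upper quartile factors, 570 without a count filter, 711 with library size alone, 1514 in DESeq2, 2393 on these groups alone and 3609 in limma-voom. The 10 genes gave 5, 2, 5, 9 and 9 calls without a filter, with library size alone, in DESeq2, on these groups alone and in limma-voom. Within YAP-SY, 532 genes passed, but 859 without a filter, 2006 with library size alone, 1834 in DESeq2, 16 in limma-voom and 0 on these groups alone, and 0 to 595 without 1 tumor. Of the 10, 7 passed without a filter, with library size alone or without YAP-SY CCA tumor 8 and mixed tumor 3 together (713 genes in all). CCA tumor 8 was the highest and mixed tumor 3 the lowest of its YAP-SY group for all 7 class II genes. In DESeq2 6 of the 10 passed, with upper quartile factors 2, in limma-voom or on these groups alone 0, and without 1 tumor 0 to 7.

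Values that changed sign did so for genes that had not passed, apart from Kdr. With library size alone, B2m was at -0.48 in CCA and -0.14 for CCA against mixed within YAP-SY, and Kdr, an endothelial gene called higher in CCA, at -0.009. In limma-voom, H2-D1 was at 0.15 and H2-K1 at 0.20 for CCA against mixed within YAP-SY, and in mixed tumors Cd74 was at -0.21, H2-Aa at -0.10, H2-Ab1 at -0.12, H2-D1 at -0.20, H2-Eb1 at -0.079 and H2-K1 at -0.087. With 1 tumor left out, H2-K1 ran from -0.45 to 0.13 within YAP-SY and from -0.18 to 0.38 in mixed tumors, and H2-D1 from -0.11 to 0.33 there, each lowest or highest on the changed side without YAP-SY mixed tumor 9. B2m ran from -0.11 (without YAP-S CCA tumor 3) to 0.28 in CCA. The cause was not tested. Depth limits Ifng and the class II genes in SB1, where counts were 0 to 2 for 4 of them.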

Other observations

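SB1 sample 3 was the highest of the 3 SB1 samples for all 3 class I genes, for 10 of 14 peptide supply genes and for 7 of 8 nonclassical class I genes. It was highest for 4 of the 7 class II genes, 1 of which, H2-Aa, had a single count. Among other lists it was highest for 4 of 8 cholangiocyte markers and 0 of 8 hepatocyte markers. The share over all genes was not counted. With 3 samples of 1 group there is no comparison to test.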
